A study of Caenorhabditis elegans with 15 samples.

Results

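The genes described here encode subunits of ligand-gated ion channels of the nematode Caenorhabditis elegans. They were chosen by name: every probe set annotated to a gene whose symbol starts with acr-, lgc- or glr-, or to unc-29, unc-38, unc-63, unc-49, nmr-1 or nmr-2. The choice did not use measured values. It gave 95 of the 22548 probe sets on the array that are not controls. Of these, 91 were annotated to a single gene each and covered 80 genes, and 4 were annotated to 2 gene IDs each and were not tested. Transcript levels were read as deposited log2 values, on which a difference of 1 is a doubling.

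The series measured whole larvae on 15 arrays from 13 biological samples. Wild type was the Bristol strain N2 (3 separately grown populations). The alg-1 mutant was VC446, which carries alg-1(gk214) on chromosome X (3 populations), and alg-1 encodes an Argonaute protein of the microRNA pathway. The rde-4 mutant was BB11, which carries rde-4(ne299) on chromosome III (3 populations), and rde-4 encodes a double-stranded RNA binding protein that works with Dicer. The zfp-1 mutant was RB774, which carries zfp-1(ok554) on chromosome III (2 populations), and zfp-1 encodes a chromatin protein with PHD zinc fingers. The lin-35 mutant was MT3033, which carries lin-35(n745) together with unc-13(e1091) on chromosome I (2 populations). lin-35 encodes the retinoblastoma protein of the worm, and unc-13 encodes a protein that readies synaptic vesicles for release. Effects of one mutation and of the other cannot be told apart in this strain, named below by its lin-35 allele. In all 5 groups, eggs hatched overnight without food and the larvae were then fed bacteria for 6 to 7 h. One zfp-1 sample and one lin-35 sample, replicate 2 of each, were put on 2 arrays, which were averaged.

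Ligand-gated ion channels turn a released transmitter into a current across the membrane of the receiving cell. In the Cys-loop family, several subunits surround one pore: the nicotinic receptors, built from acr and unc subunits, pass cations when acetylcholine binds, whereas unc-49 and related lgc subunits bind GABA and mostly pass chloride. The glr and nmr genes encode ionotropic glutamate receptor subunits of the AMPA, kainate and NMDA types. In the worm, body wall muscle is excited through acetylcholine receptors and relaxed through the UNC-49 GABA receptor, and glutamate receptors on interneurons carry signals that set the direction of movement. Since whole larvae were used, fewer cells of a type and less RNA per cell cannot be told apart in any value below.

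All 5 groups held between 8151 and 8374 genes per sample at a log2 value of 5 or more. The rde-4 transcript fell by 2.97 in the rde-4 mutant and lin-35 by 1.61 in the lin-35 mutant (limma adjusted p = 6.1e-06 and 0.0015). The alg-1 transcript differed by -1.44 in its own mutant (limma adjusted p = 0.219), and neither zfp-1 (0.01) nor unc-13 (-0.14) passed the test in its mutant. Probe positions around the lesions are not stated in the files or labels. The first 2 wild-type populations scored 46.1 and 49.3 on the second principal component of all tested genes, the third scored 13.6, and mutant samples ranged from -30.9 to 21.9. Replicates 1 and 3 of the alg-1 mutant were as alike as 2 arrays of 1 sample. Their values differed with an SD of 0.27 over the tested genes, against 0.22 and 0.36 for the arrays of 1 sample and 0.36 to 0.77 for the other pairs of biological samples. Over the channel genes the same figures were 0.41 for the alg-1 pair, 0.21 and 0.37 for the paired arrays and 0.33 to 0.66 for the other biological pairs. There the alg-1 pair lay within the range of the other biological pairs. The log2 excess of 3′ over 5′ control probes for actin, a sign of RNA quality, was 1.94 to 2.96 in the rde-4 mutant, 1.25 to 2.22 in wild type and 0.81 to 1.62 in the other mutants.

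Most channel genes lay below a measurable level in these larvae. A gene was tested where 2 or more of the 13 samples reached a log2 value of 5, as 32 of the 80 channel genes (40%) and 50.5% of the 17118 genes on the array did. Among the 80, 26 lay at 5 or more in all 13 samples, 46 lay below 5 in all 13 (57.5%, against 48% of all genes) and 8 lay on both sides. The 48 genes not tested had means between 1.60 and 4.52, and 40 of them lay under 3. By family, 9 of 20 acr genes, 16 of 45 lgc genes, 3 of 9 glr genes and 4 of the 6 unc and nmr genes were tested. Levels of different genes come from different probes, so their order on the array is not an order of transcript abundance.

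**Figure D1:**
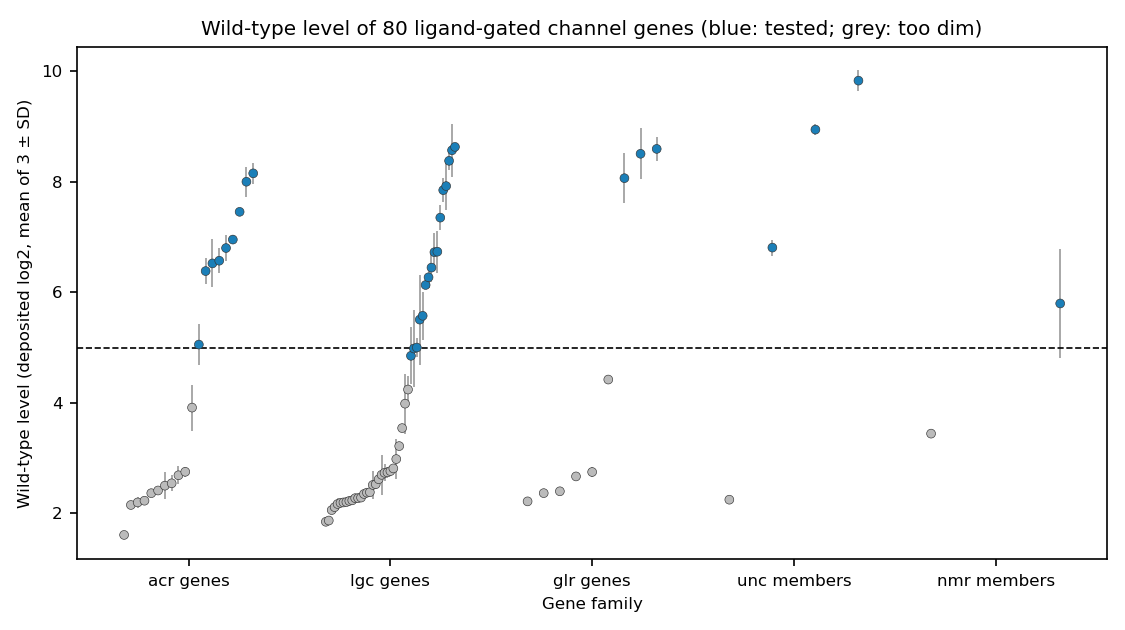
Wild-type level of the 80 channel genes (vertical axis, deposited log2 value, mean of 3 populations with SD) by gene family (horizontal axis). Blue points are the 32 tested genes, grey points the 48 that were too dim, and the dashed line marks 5; unc-49 is the uppermost point, and most lgc genes lie near 2 to 3.

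The chromosomes of the 80 genes were taken from the RefSeq annotation of assembly WBcel235. Chromosome X held 23 of them (28.8%, against 13.8% of all genes on the array), chromosome V 16, chromosome II 12, chromosome III 11, chromosome IV 10 and chromosome I 8. Of these, 7 on X, 8 on V, 7 on II, 6 on III, 3 on I and 1 on IV were tested. A run of lgc genes on X holds lgc-13, lgc-14, lgc-15, lgc-16, lgc-17 and lgc-18. Its 4 genes with a probe set of their own had means of 2.18 to 2.57, and the probe set shared by lgc-16 and lgc-17 ranged from 2.54 to 2.76. Of other adjacent pairs, acr-16 and acr-15 on V were both tested, acr-2 on X was tested while acr-3 lay below 5 in all samples, and both lgc-6 and lgc-5 on IV lay below 5 in all samples.

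In each of the 4 comparisons of a mutant with wild type, 0 of the 32 channel genes differed by 1 or more on the log2 scale, whereas 6.88% (alg-1), 12.1% (zfp-1), 12.4% (rde-4) and 11.4% (lin-35) of the 8653 genes tested did. Only 2 channel genes passed the test in at least 1 of the 4 comparisons, against 18.9% of all genes tested: lgc-39 was lower in the zfp-1 mutant and glr-1 was lower in the rde-4 mutant. Direct comparisons between mutants added lgc-44, lgc-49 and acr-2. The test was limma's moderated test with all 5 groups in the fit, adjusted by Benjamini-Hochberg within each comparison, with a threshold of 0.05.

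**Figure D2:**
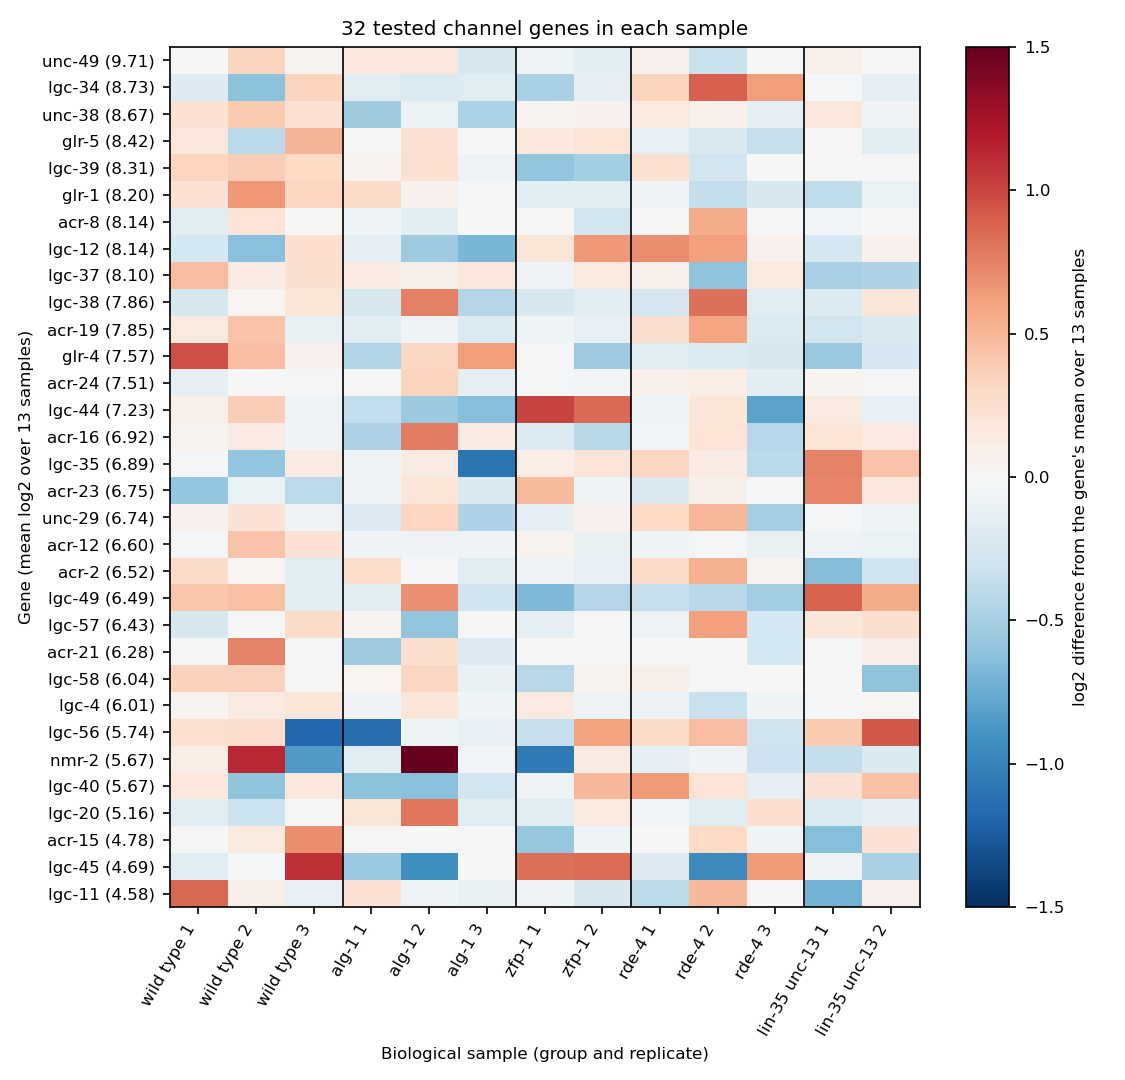
The 32 tested channel genes (vertical axis, with each gene's mean log2 value) in the 13 biological samples (horizontal axis, grouped by strain). Colour is the log2 difference from the gene's own mean over the 13 samples; nmr-2 in alg-1 replicate 2 is among the strongest colours, and the row for acr-24 is nearly uniform.

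The nicotinic receptor of body wall muscle that is opened by levamisole, an anthelmintic drug, contains UNC-29, UNC-38 and UNC-63 with LEV-1 and LEV-8. unc-29 and unc-38 were measurable, while unc-63 lay between 2.17 and 2.36 in all 13 samples, below the level at which its transcript could be followed. For unc-38, wild-type samples were at 8.89, 9.07 and 8.88 and alg-1 samples at 8.13, 8.57 and 8.20. All 3 alg-1 samples lay below all wild-type samples. The difference of -0.65 ± 0.17 (SE, n = 3 and 3, 95% interval -1.02 to -0.27) did not pass (limma adjusted p = 0.0683), and it passed without alg-1 replicate 2 (limma adjusted p = 0.0346). That setting left alg-1 replicates 1 and 3, which over all tested genes were as alike as 2 arrays of 1 sample. In the other mutants unc-38 was at 8.71 and 8.73 (zfp-1), 8.81, 8.74 and 8.52 (rde-4), and 8.84 and 8.61 (lin-35). unc-29 ranged from 6.25 to 7.24, and its groups overlapped in every comparison with wild type, with differences between -0.18 and 0.03. LEV-1, which falls outside the naming rule, had differences of -0.38 in the alg-1 mutant and -0.52 in the zfp-1 mutant, and neither passed (limma adjusted p = 0.287 and 0.161).

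The ACR-2 receptor sets the excitability of cholinergic motor neurons and is built from ACR-2, ACR-3, ACR-12, UNC-38 and UNC-63. acr-2 was at 6.81, 6.55 and 6.36 in wild type, 6.81, 7.05 and 6.57 in the rde-4 mutant, and 5.87 and 6.22 in the lin-35 mutant. The alg-1 samples were at 6.78, 6.48 and 6.35 and the zfp-1 samples at 6.47 and 6.40. Both lin-35 samples lay below every other sample. The value of lin-35 replicate 2 is the mean of arrays at 5.87 and 6.58, and the array at 6.58 lay within the range of wild type. acr-2 was 1.70-fold higher in the rde-4 mutant than in the lin-35 mutant, a difference of 0.76 ± 0.22 (SE, n = 3 and 2, 95% interval 0.28 to 1.25, limma adjusted p = 0.0479), and 11.4% of all genes passed in this comparison. It passed in 6 of 23 alternative settings, with adjusted p between 0.0066 and 0.401. Against wild type, neither the 0.24 in the rde-4 mutant nor the -0.53 in the lin-35 mutant passed (limma adjusted p = 0.45 and 0.212). acr-12 ranged from 6.49 to 7.02, with differences of -0.29 to -0.23 and none past the test, and acr-3 lay between 2.31 and 2.41.

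Among the other nicotinic subunits, acr-16 forms a levamisole-insensitive receptor of body wall muscle on its own. It was at 6.97, 7.04 and 6.86 in wild type, and over all 13 samples it ranged from 6.46 to 7.69, both in the alg-1 mutant. acr-23, which encodes a receptor for betaine, was at 6.16, 6.64 and 6.35 in wild type and 7.47 and 6.92 in the lin-35 mutant, so these groups did not overlap. The difference of 0.81 ± 0.25 (SE, n = 2 and 3) did not pass (limma adjusted p = 0.0796). The zfp-1 samples of acr-23 also lay above all wild-type samples, and their difference of 0.58 did not pass (limma adjusted p = 0.20). acr-24, of the same subfamily, had the narrowest range of any tested channel gene. Its 13 samples spanned 0.49 and its 5 group means 0.11. acr-8, acr-15, acr-19 and acr-21 had no difference past the test, and the largest of theirs was -0.59 for acr-15 in the zfp-1 mutant.

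lgc-39 encodes a channel opened by both acetylcholine and biogenic amines. It was at 8.63, 8.67 and 8.60 in wild type, and at 7.71 and 7.80 in the zfp-1 mutant. Both zfp-1 samples lay below all the other 11 samples, the lowest of which was 8.03. lgc-39 was 1.84-fold lower in the zfp-1 mutant than in wild type, a difference of -0.88 ± 0.19 (SE, n = 2 and 3, 95% interval -1.29 to -0.47, limma adjusted p = 0.0237). It was the 1 channel gene of 32 that passed in this comparison, in which 4.2% of all genes passed and 2.92% were lower. In the other mutants its samples were at 8.35, 8.53 and 8.23 (alg-1), 8.53, 8.03 and 8.30 (rde-4), and 8.33 and 8.28 (lin-35). Those differences of -0.26, -0.35 and -0.33 did not pass (limma adjusted p = 0.432, 0.19 and 0.356). The zfp-1 difference lost its call when wild-type replicate 1, wild-type replicate 2 or either zfp-1 sample was left out (limma adjusted p = 0.0615, 0.0784, 0.192 and 0.172), while its size stayed between -0.92 and -0.84. Against wild-type replicate 3 alone it was -0.85 (limma adjusted p = 0.348).

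**Figure D3:**
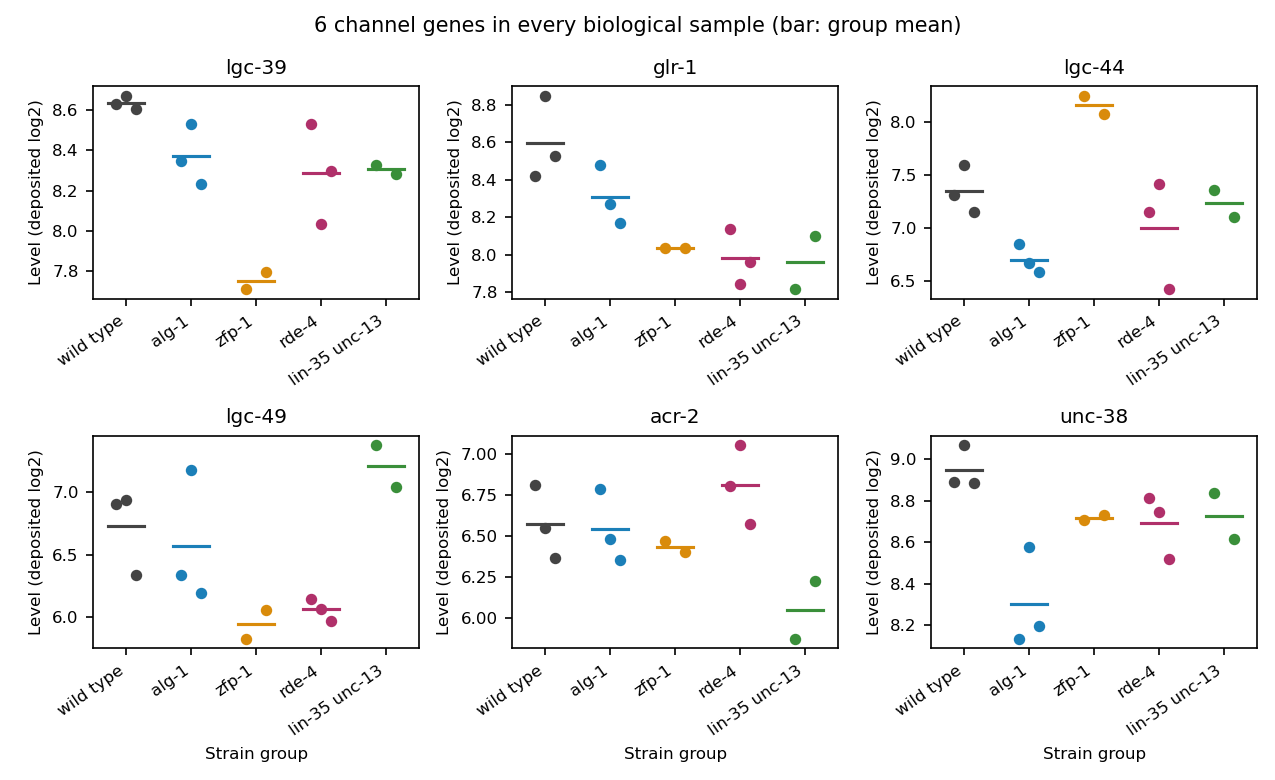
Level of lgc-39, glr-1, lgc-44, lgc-49, acr-2 and unc-38 (vertical axes, deposited log2 value) in every biological sample of the 5 strain groups (horizontal axes), with a bar at each group mean. With paired arrays averaged, both zfp-1 samples are lowest for lgc-39 and highest for lgc-44, and both lin-35 samples are lowest for acr-2.

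lgc-44 was the 1 channel gene that passed a test of any difference among the 5 groups, an F test over the same fit (limma adjusted p = 0.0265). This test was passed by 14.2% of all genes, and at an unadjusted p under 0.05 by 7 channel genes and 32.6% of all genes. It was at 7.31, 7.60 and 7.15 in wild type, 6.86, 6.67 and 6.59 in the alg-1 mutant and 8.25 and 8.07 in the zfp-1 mutant. The alg-1 samples lay below and the zfp-1 samples above all wild-type samples, and the rde-4 samples (7.15, 7.42 and 6.43) and lin-35 samples (7.36 and 7.10) overlapped them. lgc-44 was 2.74-fold lower in the alg-1 mutant than in the zfp-1 mutant, a difference of -1.45 ± 0.27 (SE, n = 3 and 2, 95% interval -2.05 to -0.86, limma adjusted p = 0.0321). In that comparison 0.705% of all genes and 1 of the 32 channel genes passed. Against wild type, neither the -0.65 in the alg-1 mutant nor the 0.81 in the zfp-1 mutant passed (limma adjusted p = 0.182 and 0.112). The F test did not pass without either zfp-1 sample or without alg-1 replicate 1 or 3. The direct difference passed in 14 of 23 alternative settings. It did not pass without any 1 of the alg-1 or zfp-1 samples (limma adjusted p between 0.0741 and 0.316), nor without rde-4 replicate 1 (0.0518), nor with alg-1 replicates 1 and 3 counted as 1 sample (0.103).

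lgc-49 belongs to the subfamily of acetylcholine-gated chloride channels, which let acetylcholine inhibit a cell. It was at 7.37 and 7.04 in the lin-35 mutant, 5.83 and 6.06 in zfp-1 samples, and 6.15, 6.07 and 5.97 in rde-4 samples. Wild type was at 6.91, 6.94 and 6.34, between those groups, and the alg-1 samples at 6.33, 7.18 and 6.19 spread over most of the range. lgc-49 was 2.41-fold lower in the zfp-1 mutant than in the lin-35 mutant, a difference of -1.27 ± 0.32 (SE, n = 2 and 2, limma adjusted p = 0.0396), in a comparison that 6.28% of all genes passed. It was 2.21-fold lower in the rde-4 mutant than in the lin-35 mutant, a difference of -1.15 ± 0.29 (SE, n = 3 and 2, limma adjusted p = 0.0281). The first of these lost its call without either sample of the zfp-1 or lin-35 mutant (limma adjusted p between 0.0901 and 0.266) or without alg-1 replicate 1, rde-4 replicate 1 or rde-4 replicate 3 (0.0517 to 0.0594), and the second without any 1 of the rde-4 or lin-35 samples (0.0519 to 0.261). Against wild type, the differences of -0.79 (zfp-1), -0.66 (rde-4), -0.16 (alg-1) and 0.48 (lin-35) did not pass. The other 3 genes of the subfamily (lgc-46, lgc-47 and lgc-48) were below 5 in all samples.

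All 4 genes of the GABA receptor class with a probe set were tested, and none passed in any comparison with wild type. unc-49, which mediates relaxation of body wall muscle, was at 9.70, 10.05 and 9.75 in wild type and between 9.38 and 9.88 in the mutants. Its 5 group means spanned 0.23, and no difference passed (limma adjusted p of the F test = 0.80). A second bright probe set of unc-49 was at 9.91, 9.92 and 10.34 in wild type and no higher than 9.73 in any mutant sample. Its differences of -0.38 (alg-1), -0.51 (zfp-1), -0.53 (rde-4) and -0.53 (lin-35) did not pass (limma adjusted p between 0.107 and 0.355). lgc-37, a subunit of the GABA receptor class, was at 8.57, 8.23 and 8.35 in wild type and 7.62 and 7.65 in the lin-35 mutant. These groups did not overlap, and the difference of -0.75 ± 0.23 (SE, n = 2 and 3) did not pass (limma adjusted p = 0.0815). lgc-35, an excitatory GABA receptor, and lgc-38 had no difference past the test. lgc-35 was at 7.64 and 7.32 in the lin-35 mutant and no higher than 7.02 in wild type.

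Among further lgc genes, lgc-34 and lgc-12 had the largest positive differences in the rde-4 mutant. lgc-34 was at 8.54, 8.11 and 9.06 in wild type and 9.07, 9.63 and 9.36 in the rde-4 mutant, a difference of 0.78 ± 0.24 (SE, n = 3 and 3, limma adjusted p = 0.0569). The groups lay next to each other without overlap, because of wild-type replicate 3, and without it the difference was 1.03 (limma adjusted p = 0.0132). lgc-12 was at 7.87, 7.51 and 8.39 in wild type and 8.84, 8.75 and 8.20 in the rde-4 mutant, with an overlap. Its difference of 0.67 did not pass (limma adjusted p = 0.122), and was 0.90 without wild-type replicate 3 (limma adjusted p = 0.0453). lgc-40, which encodes a channel opened by serotonin and by choline, was at 5.83, 5.07 and 5.83 in wild type and ranged from 5.04 to 6.30 over all samples, with no difference past the test. lgc-56 and lgc-45 gave the largest differences in the lin-35 mutant on the high side (0.89) and in the alg-1 mutant on the low side (-0.80). Their samples ranged from 4.56 to 6.66 and from 3.73 to 5.79, and neither difference passed (limma adjusted p = 0.336 and 0.342). The genes lgc-41, lgc-50, lgc-53 and lgc-55, which also encode channels opened by amines or choline, were below 5 in all samples.

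Of the glutamate receptor subunits, glr-1, glr-4 and glr-5 were tested. glr-1, an AMPA-type subunit of the interneurons that control backward and forward movement, was at 8.42, 8.85 and 8.52 in wild type and 8.14, 7.84 and 7.96 in the rde-4 mutant. All rde-4 samples lay below all wild-type samples. The gene was 1.53-fold lower in the rde-4 mutant, a difference of -0.62 ± 0.18 (SE, n = 3 and 3, 95% interval -1.003 to -0.23, limma adjusted p = 0.0458), and it was the 1 channel gene of 32 that passed where 11.1% of all genes did and 4.73% were lower. The zfp-1 samples were both at 8.04, the lin-35 samples at 7.82 and 8.10 and the alg-1 samples at 8.48, 8.27 and 8.17. Those differences of -0.56, -0.64 and -0.29 did not pass (limma adjusted p = 0.127, 0.0837 and 0.416), and all 4 comparisons share the wild-type samples. A second probe set for glr-1 gave -0.21 ± 0.15 in the rde-4 mutant (SE, limma adjusted p = 0.382). The brighter one, used here, is of the kind whose probes may also match other transcripts. The rde-4 call held in 7 of 24 alternative settings, with adjusted p between 0.0403 and 0.526, and it was lost without any 1 of the wild-type, rde-4 or zfp-1 samples or without alg-1 replicate 1 or 3. The 3′ excess of the actin control was 1.94, 2.96 and 2.08 in the rde-4 samples and 1.25, 2.22 and 1.58 in wild type, so these groups overlapped, and its part in the glr-1 difference was not tested.

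glr-4, a kainate-type subunit, was at 8.54, 8.03 and 7.63 in wild type, 7.54 and 7.03 in zfp-1 samples, 7.40, 7.36 and 7.33 in the rde-4 mutant, and 7.02 and 7.32 in the lin-35 mutant. In these 3 mutants every sample lay below every wild-type sample, and the wild-type samples themselves spanned 0.91. The differences of -0.78, -0.70 and -0.90 did not pass (limma adjusted p = 0.194, 0.14 and 0.151). glr-5 ranged from 8.02 to 8.93, both in wild type. nmr-2, an NMDA-type subunit, had the widest range of any tested channel gene, from 4.61 to 7.496, with a residual SD of 0.81. Wild type alone covered 4.82 to 6.80, so differences of -0.60 to 0.41 were within the spread between replicates. nmr-1 lay between 3.38 and 3.50, and both probe sets of glr-2, the partner of glr-1, lay between 1.94 and 3.12.

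**Figure D4:**
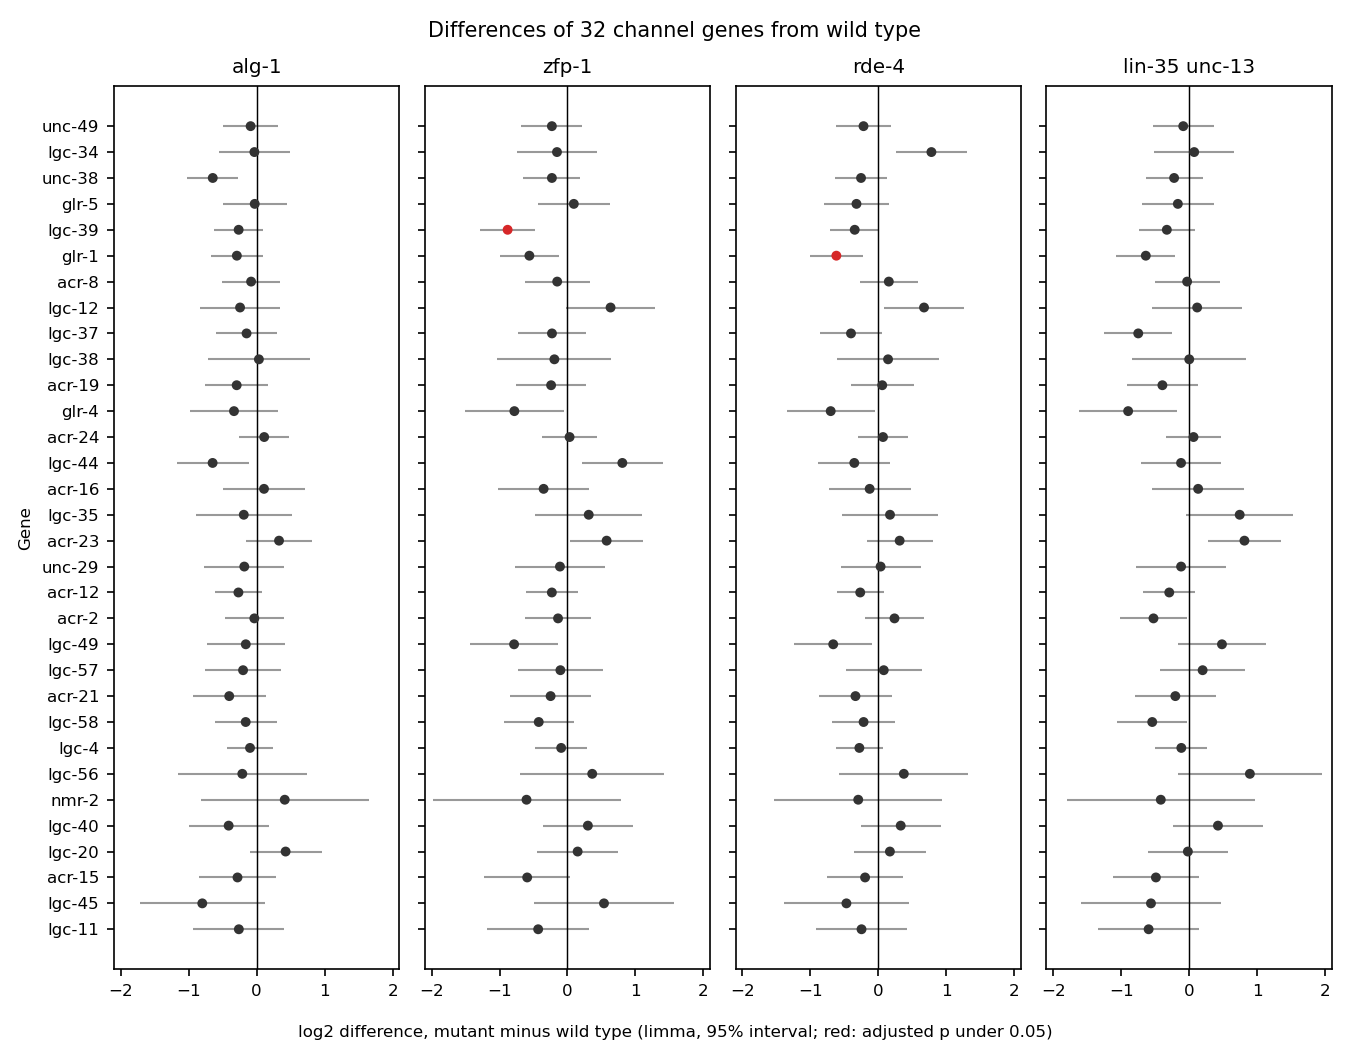
The log2 difference of each mutant from wild type (horizontal axes, one panel per mutant) for the 32 tested channel genes (vertical axis). Points are limma estimates with 95% intervals; the red points, lgc-39 in the zfp-1 panel and glr-1 in the rde-4 panel, are the differences with an adjusted p under 0.05.

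Counted over the family, the alg-1 mutant had 0 of 32 channel genes past limma's test, in a comparison that 3.13% of all genes passed, and 2 at an unadjusted p under 0.05 (unc-38 and lgc-44), against 18.3% of all genes. The lin-35 mutant had 0 of 32, against 6.66% of all genes, and 6 at an unadjusted p under 0.05, against 20.4%. At that unadjusted threshold the zfp-1 mutant had 6 channel genes (22% of all genes) and the rde-4 mutant 5 (29.3%). Counting genes whose mutant and wild-type samples did not overlap at all gave 4 channel genes in the alg-1 comparison (23% of all genes), 10 in the zfp-1 (44.8%), 7 in the rde-4 (32.2%) and 16 in the lin-35 comparison (36.2%). Of these shares, the lin-35 one (50% of channel genes) was above that of all genes, and the other 3 were below it. Between mutants, 3 channel genes passed in at least 1 of the 6 direct comparisons, against 14.4% of all genes. No channel gene passed limma's test between alg-1 and rde-4 (1.02% of all genes), alg-1 and lin-35 (6.95%) or zfp-1 and rde-4 (1.36%). At an unadjusted p under 0.05 these 3 comparisons held 4, 6 and 3 channel genes, beside 15.5%, 19.4% and 11.4% of all genes.

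The 95% interval of the difference from wild type lay wholly within 1 of 0 on the log2 scale for 27 of 32 channel genes in the alg-1 mutant, 18 in zfp-1, 24 in rde-4 and 18 in lin-35. The same held for 62%, 51.3%, 53.4% and 51.3% of all genes. For the others the interval extended to 1 or beyond in at least 1 direction. Median differences of the 32 genes were -0.19 (alg-1), -0.17 (zfp-1), -0.21 (rde-4) and -0.12 (lin-35), beside 0.02, -0.01, 0.04 and 0.01 for all genes tested. Differences below 0 were found for 26, 22, 18 and 21 of the channel genes, beside 47.2%, 50.6%, 46.9% and 48.9% of all genes. Subtracting each array's median moved the median of all genes by 0.12 in zfp-1, 0.14 in rde-4 and -0.16 in lin-35, and quantile normalisation moved it by -0.13 in lin-35. Without wild-type replicate 2 or 3 the channel genes' rde-4 median was -0.09 or -0.11, and under quantile normalisation their lin-35 median was -0.34 beside -0.12. With medians subtracted, the channel genes' medians were -0.06 beside 0.11 in zfp-1, -0.06 beside 0.19 in rde-4 and -0.28 beside -0.15 in lin-35. The rde-4 call was then lgc-34, which was higher by 0.92 (limma adjusted p = 0.0303), in place of glr-1, which was -0.47 (limma adjusted p = 0.107).

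Over all 13 samples, a channel gene's values spanned a median of 1.22, against 1.40 for all genes tested. Its group means spanned 0.62 against 0.73, and its residual SD was 0.30 against 0.32. All 3 medians were lower for the channel genes than for all genes, by amounts that were not tested.

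Several channel genes had more than 1 probe set, and these agreed to different degrees. For unc-49, which yields several transcript forms, 1 further probe set ranged from 9.14 to 10.34 and the other 2 lay between 2.32 and 3.22. For glr-4 the further probe sets lay below 5 in all samples, between 2.45 and 4.83, while the one used ranged from 7.02 to 8.54. A value below 5 is thus a statement about a probe set and not about all transcripts of its gene. Of the 4 probe sets annotated to 2 gene IDs, 2 lay above 4.9 in all samples: that of lgc-31 between 4.95 and 6.56, and that of lgc-29 and Y45G5AL.1 between 5.97 and 7.27.

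**Figure D5:**
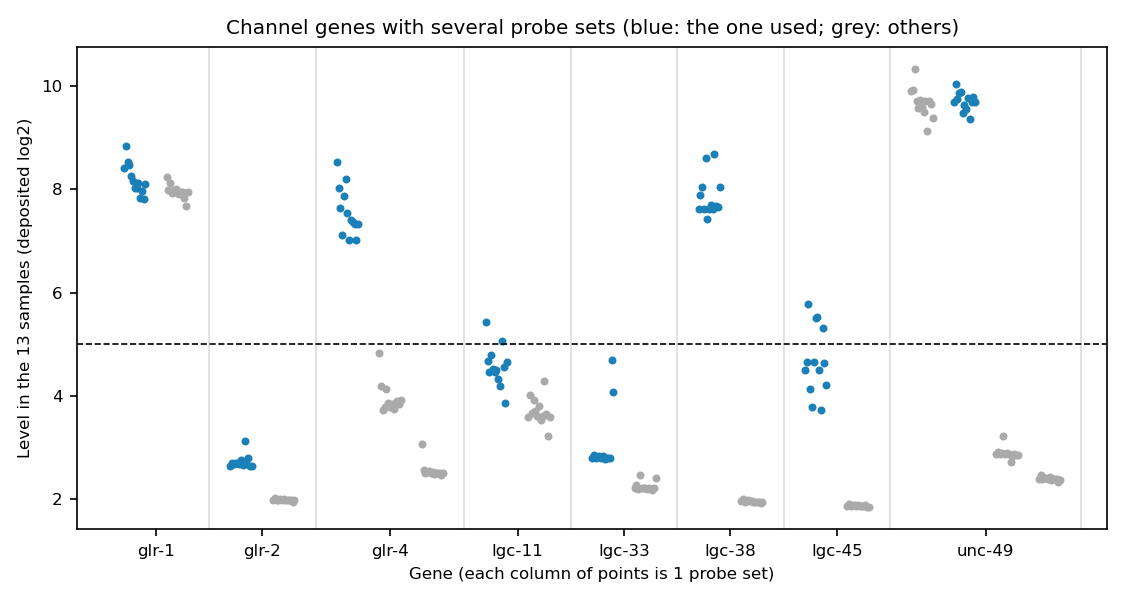
Levels in the 13 samples (vertical axis, deposited log2 value) of every probe set of the 8 channel genes with more than 1 (horizontal axis, each column of points is 1 probe set). Blue points are the probe set used for the gene and grey points the others; the dashed line marks 5, and for unc-49, glr-4 and others some probe sets of a gene lie above it and some below.

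Against wild type, few genes that work with these receptors passed the test, and those that did passed in the rde-4 mutant. Of 10 tested subunits of other ligand-gated channels (acc, avr, glc and similar names), 1 fell in the rde-4 mutant. This was glc-1, a glutamate-gated chloride channel, which was at 5.92, 6.71 and 4.02 in wild type and between 2.73 and 3.32 in the rde-4 mutant. That is at least 1.46-fold lower, taking 5 as the lowest level measured (limma adjusted p = 0.0197), and 1 of the 3 wild-type samples also lay below 5. The fitted difference was -2.43 and was -0.90 against wild-type replicate 3 alone (limma adjusted p = 0.526). It did not pass without wild-type replicate 1 or 2 or rde-4 replicate 3 (limma adjusted p = 0.0754, 0.063 and 0.0565). Of 19 tested assembly and clustering factors, 1 fell: lev-10, which gathers levamisole receptors at the muscle synapse, was at 11.68, 11.81 and 11.69 in wild type and 11.04, 10.34 and 11.02 in the rde-4 mutant, a difference of -0.93 (limma adjusted p = 0.0231). This did not pass without wild-type replicate 1 or 2 or rde-4 replicate 2 (limma adjusted p = 0.0718, 0.0774 and 0.0502). Of 11 tested genes for making, loading or removing transmitters, 1 rose: cho-1, the choline transporter of cholinergic neurons, was at 4.63, 3.86 and 4.78 in wild type and 6.08, 5.86 and 5.91 in the rde-4 mutant, at least 1.93-fold higher (limma adjusted p = 0.0105). It passed with any 1 sample left out, and not against wild-type replicate 3 alone (1.17, limma adjusted p = 0.324). Of 11 tested metabotropic receptors for the same transmitters, 0 passed in any mutant by limma, and 1 to 4 per mutant had an unadjusted p under 0.05. Over the 4 lists, 3 of 51 genes passed limma's test in the rde-4 mutant, where 11.1% of all genes did, and 0 in the alg-1, zfp-1 and lin-35 mutants, where 3.13%, 4.2% and 6.66% did. At an unadjusted p under 0.05 there were 9 (alg-1), 11 (zfp-1), 12 (rde-4) and 11 (lin-35) of the 51, beside 18.3%, 22%, 29.3% and 20.4% of all genes. Between mutants, 1 of the other channels and 1 assembly factor passed for alg-1 against lin-35, beside 6.95% of all genes. For rde-4 against lin-35 these counts were 1 and 2, beside 11.4% of all genes. Median differences in the rde-4 mutant were -0.14 for the other channels, 0.20 for the assembly factors, 0.11 for the transmitter genes and 0.01 for the metabotropic receptors, beside 0.04 for all genes tested.

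deg-3 and des-2, whose products form a choline receptor together and which are of the same subfamily as acr-23, were measured beside them. In the lin-35 mutant deg-3 differed from wild type by 0.86 and des-2 by 0.75, in the rde-4 mutant by 0.69 and 0.64, in the zfp-1 mutant by 0.44 and 0.90, and in the alg-1 mutant by -0.56 and -0.09. None of these differences from wild type passed (limma adjusted p between 0.128 and 0.922). In the direct comparison of alg-1 with lin-35, 1 of deg-3 and des-2 was lower in the alg-1 mutant past limma's test. That comparison was passed by 6.95% of all genes.

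Markers of the cell types that could carry the channels were read in the same fit. Of 13 tested neuron markers, 2 fell in the rde-4 mutant: egl-21, which encodes a neuropeptide processing enzyme, by 0.98, and ida-1, a dense core vesicle gene, by 0.91 (limma adjusted p = 0.0355 and 0.0499). The egl-21 call was lost in 10 of 23 other settings, among them without wild-type replicate 1 or 2, alg-1 replicate 1, either zfp-1 sample or rde-4 replicate 2 or 3. The ida-1 call was lost in 18 of 23, and of the settings with 1 sample left out it held in that without alg-1 replicate 2. In the other mutants 0 neuron markers passed limma's test, and 0 (alg-1), 1 (zfp-1) and 0 (lin-35) had an unadjusted p under 0.05. On the log2 scale, the summed level of the 15 neuron markers with a probe set was 15.88 to 15.89 in wild type, 15.22 to 15.54 in rde-4, 15.60 to 15.89 in alg-1, 15.74 to 15.78 in zfp-1 and 15.63 to 15.87 in lin-35. This sum weighs the brightest markers most. It was lower than in wild type in all rde-4, zfp-1 and lin-35 samples, and the alg-1 samples overlapped wild type. In the rde-4 mutant the median difference of the 13 tested markers was -0.02, and 5 of them had an unadjusted p under 0.05 (29.3% of all genes). The summed level was also lower in all rde-4 samples than in wild type for epidermis markers (16.34 to 16.88 against 17.01 to 17.02). All alg-1 samples (16.80 to 16.87) and lin-35 samples (16.75 to 16.91) lay below wild type there too, and the zfp-1 samples overlapped it. For intestine markers all rde-4 samples (16.09 to 16.62) and zfp-1 samples (16.62 to 16.63) lay below wild type (16.67 to 16.79). There the alg-1 samples overlapped wild type and the lin-35 samples lay above it (16.87 to 16.96). For body wall muscle, pharyngeal muscle and germ line markers, rde-4 and wild type overlapped in this sum. For pharyngeal muscle markers both lin-35 samples (10.92 to 11.51) lay below wild type (11.66 to 12.94). The part of the neuron markers in the glr-1 difference was not tested. Of 11 body wall muscle markers 0 passed limma's test or had an unadjusted p under 0.05 in any mutant. Of 7 tested pharyngeal muscle markers marg-1 fell by 1.39 in rde-4 and by 1.30 in lin-35, where 11.1% and 6.66% of all genes passed. Median differences of the 7 were -0.67 in rde-4 and -0.87 in lin-35, beside 0.10 in alg-1 and 0.03 in zfp-1. An unadjusted p under 0.05 was reached by 1 of them in rde-4 and 2 in lin-35. The marg-1 call in rde-4 was lost without wild-type replicate 1 or 2 or rde-4 replicate 1 or 2 (limma adjusted p between 0.056 and 0.0741). Of 7 tested epidermis markers 0 passed limma's test, and 1 had an unadjusted p under 0.05, in rde-4. Of 13 intestine markers 3 fell in each of the alg-1, zfp-1 and rde-4 mutants, where 3.13%, 4.2% and 11.1% of all genes passed. In that order, ges-1 fell 2.9-, 3.35- and 5.36-fold and cpr-6 fell 4.07-, 13.9- and 5.93-fold. The third was ftn-1 in alg-1 and zfp-1 (4.21- and 6.26-fold) and cpr-1 in rde-4 (18.6-fold). Median differences of the 13 were -0.02, -0.29 and -0.35. In the lin-35 mutant, where 6.66% of all genes passed, 4 of 11 germ line markers were tested and rose. Of these 4, pgl-1, pgl-3 and him-3 reached 5 in the lin-35 samples alone, so the filter admitted them through the group in which they were high. The summed level of the 11 was 13.50 to 14.03 in lin-35 against 6.58 to 7.07 in wild type. The part of these shifts in the channel genes' values was not tested.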

How the data were processed

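RNA from whole larvae was labelled with biotin (5 ug of total RNA) and hybridised to Affymetrix arrays. Per the labels, the authors made the deposited log2 values with GCRMA, which corrects background, normalises arrays and summarises probe sets; its version and settings are not stated. Values ran from 1.42 to 17.0 with array medians of 4.48 to 4.86, and the number of arrays, not a read depth, limits the precision. Coordinates are not given, since the arrays' build is unnamed. Value columns left unused numbered 0.

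Of 22625 probe sets, 77 controls were left out. The platform annotation gave 1 gene for 20766, several for 887 and none for 895. The gene IDs of 90 of the 91 single-gene channel probe sets matched the RefSeq table (20701 of all). A gene with several probe sets was represented by the brightest, judged by its mean over 13 samples. Paired arrays were averaged. limma 3.58.1 in R 4.3.3 (lmFit, eBayes; 8 residual and 3.489 prior degrees of freedom; median residual SD 0.318) was fitted to the 8653 genes tested, with two-sided p-values adjusted by Benjamini-Hochberg separately for each comparison. Replicates are separately grown populations apart from the paired arrays. The pipeline was tested on simulated data.

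The channel genes, the gene lists (215 names, 16 without a probe set) and the tests were chosen with earlier results of these data known. Named genes are those past a test, the 6 largest differences per mutant, the subunits of the levamisole and ACR-2 receptors, nmr-1, nmr-2, unc-49, glr-1 and acr-16, the 5 brightest in wild type, up to 4 called genes per list and mutant, and the mutated genes. The betaine and choline receptor genes, acr-24, lgc-35, glr-5, the neighbouring pairs, lgc-33 and acr-17 were named after their values were seen. Alternatives covered normalisation, filters, variance prior, paired arrays, probe sets in place of genes, a replicate block, fits of a mutant with wild type alone and omission of each sample. Figures were drawn with matplotlib 3.10.9.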

Additional observations from a re-analysis of the deposited data

Results flagged for a closer look

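Differences between a pair of mutants passed limma's test for 3 channel genes. For lgc-44 the alg-1 mutant minus the zfp-1 mutant was -1.4542. For lgc-49 the zfp-1 mutant minus the lin-35 mutant was -1.2671, and the rde-4 mutant minus the lin-35 mutant was -1.1454. For acr-2 the rde-4 mutant minus the lin-35 mutant was 0.7627.

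A pair of probe sets too dim for the test had higher values in both lin-35 samples than in all other strains. Their sample values all lay below 5, so the main test left them out and the differences are given as values. The fit without the filter on dim genes did include them, and there lgc-33 passed in the lin-35 mutant. For lgc-33 the lin-35 mean was 1.5733 above that of wild type on the log2 scale. Its lin-35 samples were at 4.69 and 4.08, and the latter is the mean of 2 arrays of 1 sample at 5.37 and 2.79, while all samples of the other strains lay between 2.77 and 2.85. A second lgc-33 probe set stayed between 2.18 and 2.46 in all 13 samples. For acr-17, a nicotinic subunit gene, the lin-35 mean was 1.2325 above that of wild type, with lin-35 samples at 2.47 and 4.30, the latter from arrays at 3.96 and 4.64, and the other strains between 2.13 and 2.17.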

How the results depend on the processing

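Every count of channel genes past the threshold moved under some setting. For alg-1 the count was 0 and ranged from 0 to 1 when samples were left out in turn (unc-38, without alg-1 replicate 2). For zfp-1 it was 1, became 0 with array medians subtracted, with the mutant and wild type fitted alone and against wild-type replicate 3 alone, and ranged from 0 to 1 when samples were left out. For rde-4 it was 1 and became 0 without the filter on dim genes, with the replicate number as a block, with a trended and robust variance prior, with the mutant and wild type alone, against wild-type replicate 3 alone and with alg-1 replicates 1 and 3 as 1 sample. It ranged from 0 to 2 when samples were left out: 2 without wild-type replicate 3 (lgc-12 and lgc-34), and 2 without alg-1 replicate 2 (glr-1 and lgc-49). For lin-35 it was 0 and became 2 under quantile normalisation and with medians subtracted (glr-1 and lgc-37 in both). It became 1 without the filter (lgc-33, with lin-35 replicate 2 averaged from arrays at 5.37 and 2.79). It became 1 with the first of the paired arrays (acr-23), and ranged from 0 to 1 when samples were left out (lgc-37, without rde-4 replicate 2). For direct comparisons of mutants it was 3, became 1 without the filter, 1 against wild-type replicate 3 alone and 1 with alg-1 replicates 1 and 3 as 1 sample, and ranged from 0 (without rde-4 replicate 1) to 3; the block gave 4, adding lgc-45. For the F test it was 1, became 2 under quantile normalisation, 3 with medians subtracted, 2 without the filter, 3 with the block, 3 with the first of the paired arrays, 0 against wild-type replicate 3 alone and 0 with alg-1 replicates 1 and 3 as 1 sample, and ranged from 0 to 3. The causes of these moves were not tested, except that the settings with fewer samples or more genes differ in that by construction. The fits with alg-1 replicates 1 and 3 merged and with 1 control were chosen after seeing the data.

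Of the alternatives to the differences of named genes, 584 kept the side of the threshold, 69 kept direction and lost the call, and 11 kept direction and gained it. The 584 also kept direction, or changed sign by a move smaller than the SE with neither fit past the test. The other 2 changed sign by a larger move. Both of these were nmr-2: in alg-1 it was 0.41 and ranged from -0.23 (without alg-1 replicate 2) to 0.91 (without wild-type replicate 2) when samples were left out, and in zfp-1 it was -0.60, and 0.38 against wild-type replicate 3 alone. The direct differences of lgc-44, lgc-49 and acr-2 and the differences of lgc-39 and glr-1 kept their sign in all settings run. Deviations of same-numbered samples from their group means correlated with a median of 0.15 (-0.27 to 0.38, over 0.1 in 14 of 23 pairs), against -0.09 for different numbers (over 0.1 in 10 of 44). Same-numbered samples were thus more alike in the median. The main fit did not use the numbers, and the fit with them as a block is among the alternatives above. The replicate block gave glr-1 an adjusted p of 0.0517 in rde-4. Genes below 5 in all samples could not be followed, and the spread within groups of 2 is estimated largely from the other groups.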
